A study of Mus musculus with 11 samples.

Results

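The lamin B1 map of differentiating oligodendrocytes (here OL) consists of 3 columns of scores, 1 for each Dam-LMNB1 library made after differentiation and numbered 18, 19 and 20. Each score compares that library with the pooled OL Dam libraries 12, 13 and 14, per the file headers. The map thus rests on 6 of the 11 libraries of the series, and all 21534 gene regions of the deposited table were used. A region was called lamina-associated when all 3 scores were above 0 and non-associated when all 3 were below 0, and was called mixed otherwise. The rule gave 5656 lamina-associated regions (26.3%), 15327 non-associated regions (71.2%) and 551 mixed regions (2.56%).

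All libraries are labelled WT (wild type) and came from oligodendrocyte precursor cells of the cortex of C57BL/6 mice at postnatal day 7. The cells carried a lentivirus that expressed either Dam-LMNB1, the adenine methyltransferase Dam fused to lamin B1, or Dam alone, for 1 day. They then spent 72 h in differentiation medium (T3 in the labels, OL) or in proliferation medium (PF, here OPC). The OPC Dam-LMNB1 libraries 8, 9 and 10, scored against the pooled OPC Dam libraries 2 and 4, serve as the comparison. The labels name the same primary OPCs as cell type in every sample and call only the source of the T3 samples oligodendrocyte. The table holds DNA contacts and no RNA, so the identity of the cells cannot be checked by marker expression, and the share of cells that had differentiated was not measured here. In a bulk map of this kind, contact in fewer cells and weaker contact in each cell cannot be told apart. Neither the promoter that drives Dam nor the number of animals behind a library is stated in the labels.

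The nuclear lamina is a meshwork of lamins under the inner nuclear membrane, and lamin B1 is a lamin that stays bound to that membrane. Stretches of chromatin that touch it are called lamina-associated domains and are typically poor in genes, rich in A and T, and low in transcription. In DamID, the fused Dam methylates the adenine of GATC wherever lamin B1 brings it near DNA, and free Dam records how accessible each site is. Oligodendrocyte precursors divide and migrate, then leave the cell cycle and make myelin, the lipid-rich sheath of axons.

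Promoters of the 2 classes differed in base composition. RefSeq promoter windows (GRCm38.p6) were matched to 15257 of the 18892 protein-coding regions searched. Over the 250 bases before the start site, the median GC content was 44.4% in lamina-associated and 59.2% in non-associated regions. The median number of CG pairs was 2 and 14, respectively. Part of the contrast came from olfactory and vomeronasal receptors. Over the full windows of 300 bases, leaving them out moved the lamina-associated median GC content from 45.3% to 50%. The median number of CG pairs there moved from 3 to 6. The non-associated medians stayed at 60% and 19. GATC, which reads the same on both strands, was present in 41.0% of lamina-associated and 39.3% of non-associated windows, against 39.8% of all windows. The letters TATAAA or their reverse complement TTTATA were present in 23.9% and 7.58%, against 11.9% of all windows. TATAAA itself was present in 17.3% of full lamina-associated windows, and in 14.3% without those receptors. A match of letters is a description of the window, not a bound site.

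The following 250 bases upstream of the start are shown because these promoters span the range of both measures, with CG pairs in capitals. The first 3 belong to lamina-associated regions and the last 3 to non-associated regions, written from 5′ to 3′ on the gene's strand.
Tas2r102 (chr6:132761881-132762130, plus strand): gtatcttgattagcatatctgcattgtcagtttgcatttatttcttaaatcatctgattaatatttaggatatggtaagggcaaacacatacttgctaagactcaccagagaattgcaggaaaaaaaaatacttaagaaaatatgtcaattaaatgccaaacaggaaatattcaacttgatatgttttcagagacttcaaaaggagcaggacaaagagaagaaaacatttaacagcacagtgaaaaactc
Ermn (chr2:58052865-58053114, minus strand): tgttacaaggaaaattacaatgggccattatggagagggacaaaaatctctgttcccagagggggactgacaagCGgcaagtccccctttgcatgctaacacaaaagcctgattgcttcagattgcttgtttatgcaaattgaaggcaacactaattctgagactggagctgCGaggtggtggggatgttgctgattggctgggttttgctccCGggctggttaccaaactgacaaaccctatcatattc
Ugt8a (chr3:125938653-125938902, minus strand): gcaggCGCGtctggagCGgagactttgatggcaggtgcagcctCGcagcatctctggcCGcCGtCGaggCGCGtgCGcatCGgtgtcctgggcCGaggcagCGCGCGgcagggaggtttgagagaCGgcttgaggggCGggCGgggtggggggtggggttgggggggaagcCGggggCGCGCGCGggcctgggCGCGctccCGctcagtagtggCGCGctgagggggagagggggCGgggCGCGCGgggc
Cnp (chr11:100574689-100574938, plus strand): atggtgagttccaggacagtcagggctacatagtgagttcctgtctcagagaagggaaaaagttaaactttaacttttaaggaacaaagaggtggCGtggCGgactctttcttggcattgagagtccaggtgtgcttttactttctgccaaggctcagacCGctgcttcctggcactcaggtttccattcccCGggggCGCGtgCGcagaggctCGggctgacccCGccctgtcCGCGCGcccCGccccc
Mog (chr17:37023399-37023648, minus strand): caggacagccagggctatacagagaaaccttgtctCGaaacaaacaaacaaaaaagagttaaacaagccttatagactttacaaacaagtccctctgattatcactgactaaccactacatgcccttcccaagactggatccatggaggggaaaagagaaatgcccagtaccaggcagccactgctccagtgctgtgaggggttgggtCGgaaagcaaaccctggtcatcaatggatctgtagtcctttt
Olig2 (chr16:91225300-91225549, plus strand): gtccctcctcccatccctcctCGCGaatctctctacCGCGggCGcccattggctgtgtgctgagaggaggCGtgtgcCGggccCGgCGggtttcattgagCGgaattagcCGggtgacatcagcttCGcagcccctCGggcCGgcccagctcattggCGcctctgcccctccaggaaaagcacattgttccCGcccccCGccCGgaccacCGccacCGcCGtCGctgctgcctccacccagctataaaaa
The bitter taste receptor gene Tas2r102 had 0 CG pairs and a mean OL score of 3.07. Ermn, which encodes the myelin cytoskeletal protein ermin, had 3 CG pairs and a mean score of 1.53. Ugt8a, whose enzyme makes the myelin lipid galactosylceramide, lay on the same side with a mean score of 0.96 and yet had 32 CG pairs and 76.8% GC. Cnp, which encodes a myelin enzyme, had 13 CG pairs and a mean score of -1.97. Mog, the gene of myelin oligodendrocyte glycoprotein, had only 2 CG pairs and 46.8% GC at a mean score of -1.01, and it was the only window of these 6 with GATC (2 sites). The lineage regulator Olig2 had 22 CG pairs and a mean score of -1.84. Among these 6, the window richest in CG pairs thus lay in a lamina-associated region, and one of the poorest, that of Mog, in a non-associated region.

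Library 18 stood apart from 19 and 20. Its mean score over all regions was -0.79, against -0.88 in library 19 and -0.87 in library 20, and its SD over regions was 1.46 against 1.54 and 1.53. Scores were above 0 in 28.3% of regions in library 18, in 26.8% in library 19 and in 27.3% in library 20. Library 18 lay outside the range of the other two in 79.7% of regions, compared with 63.8% for library 19 and 56.5% for library 20. The median absolute difference per region was 0.152 between 18 and 19 and 0.144 between 18 and 20, but 0.0894 between 19 and 20. Library 18 was also the OL library farthest from the OPC mean, with a median absolute difference of 0.251 against 0.197 for library 19 and 0.192 for library 20.

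**Figure D1:**
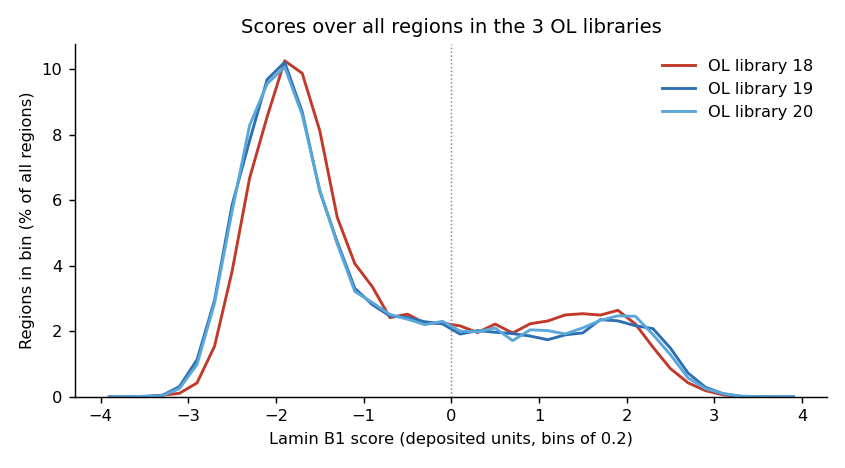
Percentage of all regions in score bins of 0.2 (horizontal axis, deposited score units) for each OL library, with a dotted line at 0. All 3 libraries have a large group of regions below 0 and a smaller, broader group above 0, and the curve of library 18 is shifted toward 0 on both sides, with a median of -1.72 in non-associated regions against -1.85 and -1.84.

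The difference of library 18 changed sign along the score. It was higher than the mean of 19 and 20 in 71.1% of all regions, with a median difference of 0.09. In regions where 19 and 20 averaged below -2.5, the median difference was 0.17 (1417 regions). It was 0.11 between 0 and 0.5 and 0.02 between 1 and 1.5, and it was -0.16 above 2.5 (351 regions). The same course appeared when the bins came from library 19 and the difference was 18 minus 20, which share no library: 0.13 in the lowest bin and -0.12 in the highest. Library 18 therefore spanned a narrower range, and the gap between the medians of lamina-associated and non-associated regions was 3.11 in library 18, 3.29 in library 19 and 3.28 in library 20.

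**Figure D2:**
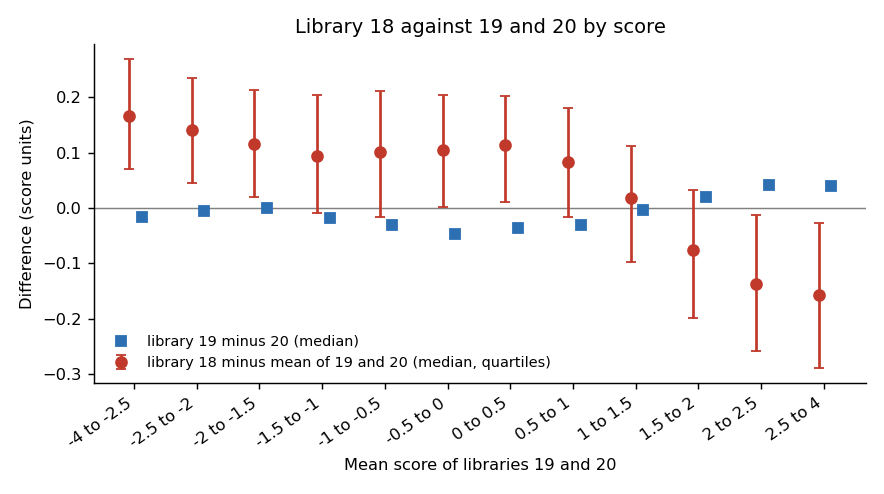
Median difference of library 18 from the mean of libraries 19 and 20 (circles, bars from the lower to the upper quartile of regions) and of library 19 from library 20 (squares), in score units, by the mean score of 19 and 20. The circles go from 0.17 in the lowest bin to -0.16 in the highest, while the squares stay between -0.05 and 0.04.

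Regions on unplaced scaffolds carried a fixed value in each library. Of 16 such regions, 13 held exactly the same value within a library, which was 0.00 in library 18, -0.13 in library 19 and -0.12 in library 20. The OPC libraries held -0.10, -0.14 and -0.10 there. The value of library 18 exceeded that of 19 by 0.132 and that of 20 by 0.124. After each library's scaffold value was subtracted, the median difference of library 18 was -0.03, and its median absolute differences from 19 and 20 fell to 0.124 and 0.122. Setting all libraries to the same mean and SD gave a median difference of 0.00 and left median absolute differences of 0.122 and 0.118, still above the 0.0894 between 19 and 20. All 16 scaffold regions are mixed by the rule.

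Among the 551 mixed regions, 262 were above 0 in library 18 alone, whereas 55 were above 0 in library 20 alone and 25 in library 19 alone. The 262 include all 16 scaffold regions. Without library 18 the rule gave 5695 lamina-associated and 15589 non-associated regions. limma, a linear model with a variance shared across regions, called 5579 regions above 0 (25.9%) and 15266 below 0 (70.9%) at a Benjamini-Hochberg adjusted p of 0.05. Without library 18 these counts were 5495 and 15356. All 3 scores of a state share 1 pooled Dam denominator, and the labels do not say that libraries came from separate cultures. The p-values thus refer to variation among the libraries alone, and that variation can be technical.

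The regions nearest the line between the classes show how little separates them there. Zfp950, a zinc finger gene, was just inside the lamina-associated class with scores of 0.17, 0.00 and 0.07 in libraries 18, 19 and 20. Erich1 fell just outside it with 0.11, -0.00 and 0.09. Foxq1, a forkhead factor gene, was just inside the non-associated class with -0.00, -0.27 and -0.34, and the interferon-induced Ifit3 just outside it with 0.00, -0.12 and -0.15. In both Foxq1 and Ifit3, library 18 was the library nearest 0.

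Single regions differed far more, as seen in those where 19 and 20 lay within 0.2 of each other. The region of the microRNA gene Mir1190 scored -1.24 in library 18 and -2.54 and -2.46 in the others. Rhox5, a homeobox gene of the reproductive tract on chromosome X, scored -1.19 in library 18 and 0.29 and 0.25 in the others. Its OPC libraries were also spread widely, at 0.89, -0.33 and 0.27. The olfactory receptor gene Olfr1186 scored 1.43, 2.64 and 2.66. The regions were picked as the largest differences each way, so both signs among them follow from that choice.

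Chromosomes differed widely in how much of their gene content was lamina-associated. Chromosome X had 407 of 842 regions in the lamina-associated class (48.3%), and the few regions of Y had 18 of 27 (66.7%). Among the autosomes, chromosome 6 was highest with 36.7%, followed by 7 with 34.0% and 3 with 33.0%. Chromosome 11, which is dense in genes, was lowest with 10.6%, and 15 and 4 had 117 of 782 and 215 of 1237 regions. Regions above 0 on chromosome X made up 51.5%, 50.4% and 50.8% in libraries 18, 19 and 20, and 47.6%, 47.0% and 47.1% in the OPC libraries. The OL libraries lay above the OPC libraries there without overlap, as they also did on chromosomes 3, 10, 13, 16 and 19. An exact permutation test over 3 against 3 libraries cannot go below p = 0.1. It gave that value on X and on each of these others (adjusted p = 0.35 over the chromosomes). Leaving out olfactory and vomeronasal receptors left 47.9% of X regions in the lamina-associated class.

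**Figure D3:**
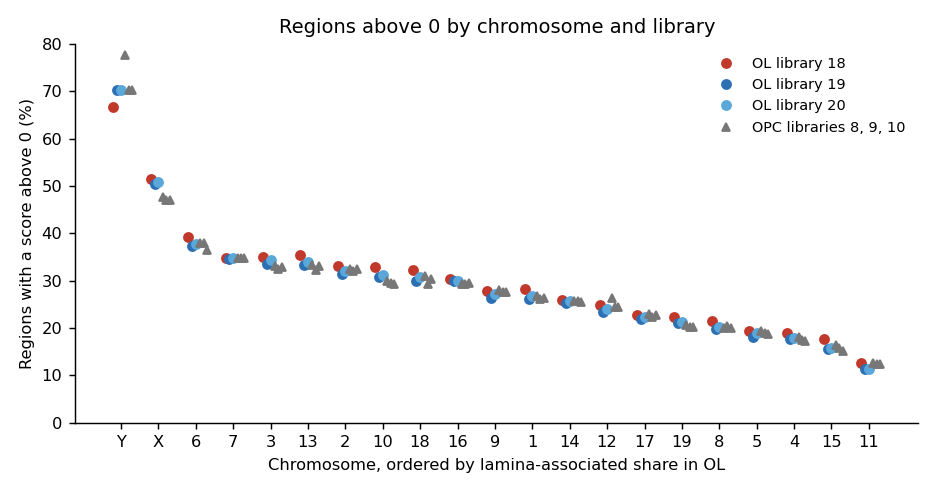
Percentage of regions with a score above 0 on each chromosome, by library (circles for OL 18, 19 and 20, triangles for OPC 8, 9 and 10), ordered by the lamina-associated share in OL. Y and X lead and chromosome 11 is lowest, and the libraries of 1 chromosome lie close together compared with the distance between chromosomes.

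The highest scores on X were those of the clustered microRNA genes Mir764, Mir1264 and Mir1912, at 2.81, 2.62 and 2.60 on average. The lowest were also microRNA genes, Mir374c at -2.72 and Mir374b and Mir421 at -2.44. Neighbouring regions overlap (63.9% of all regions overlap a neighbour), so such clusters are not independent measurements. On Y, the ubiquitin protease gene Usp9y scored 0.71, 0.92 and 0.82, whereas the RNA helicase gene Ddx3y scored -0.37, -0.60 and -0.35 in the narrower of its 2 regions. Many Y genes are copies of each other or of X genes, so their values are uncertain, and Mid1, at -1.27 and -1.31 in its 2 Y regions, is also listed there.

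Regions of the same class lay in runs along the chromosomes, some of them long. The median run held 2 regions (0.319 Mb) when lamina-associated and 3 regions (0.219 Mb) when non-associated. Consecutive lamina-associated regions formed 1062 runs, of which 385 held 1 region, and non-associated regions formed 1076 runs, of which 328 held 1 region. Runs of at least 10 regions held 55.1% of the lamina-associated and 86.3% of the non-associated regions. Of all regions, 71.2% were non-associated and 63.9% overlap a neighbour. Both can lengthen runs, and no baseline for these shares was computed. The longest lamina-associated run by distance spanned 70.6 Mb of Y with only 10 regions, which covered 4.69% of it. The next spanned 22.8 Mb of X from Cylc1 to Tspan6 with 30 regions, and 18.2 Mb of chromosome 14 from Olfm4 to Dach1 with 8 regions. All but 1 of the regions were lamina-associated in OPC too in each of these last 2 runs. The longest non-associated run was denser, with 358 regions over 20.6 Mb of chromosome 4 from Ppt1 to Pramef8, and all 358 were non-associated in OPC as well. The run on chromosome 9 from Rcn2 to Rsl24d1 held 182 regions over 17.1 Mb.

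Region width and lamina contact were related at both ends of the range. Regions up to 15 kb wide were lamina-associated in 45.4% of cases, which dropped to 27.2% without olfactory and vomeronasal receptor genes. The share was lowest, at 15.7%, between 20 and 30 kb. Wider bins had higher shares, from 29.8% between 100 and 200 kb and 45.5% between 200 and 500 kb to 66.5% of the 182 regions above 500 kb. Above 200 kb, 469 of 947 regions (49.5%) were lamina-associated. The replicates also differed less in wide regions: the median absolute difference between 19 and 20 was 0.126 in the narrowest bin and 0.0393 in the widest. For library 18 against the mean of 19 and 20 it was 0.172 and 0.0984.

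**Figure D4:**
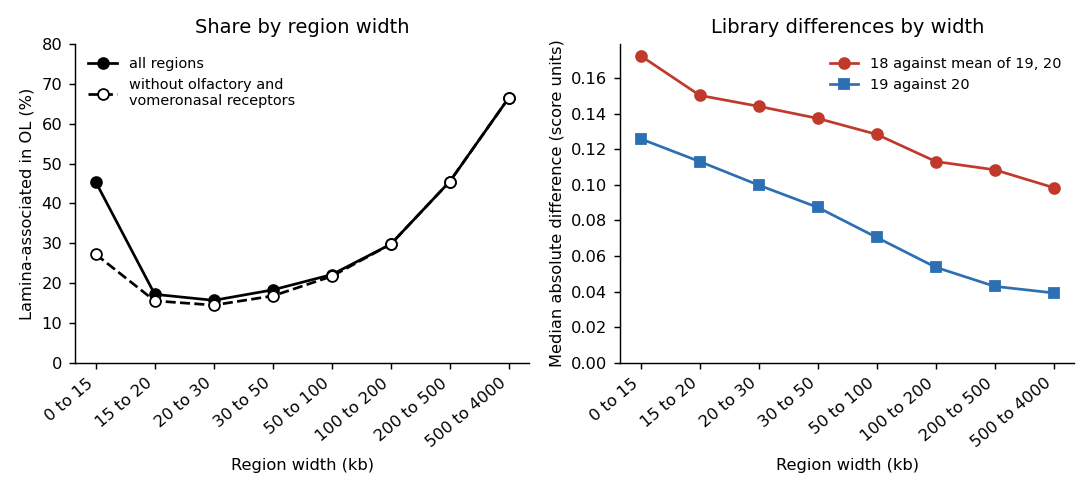
Left, percentage of regions that are lamina-associated in OL by region width in kb, for all regions (filled) and without olfactory and vomeronasal receptors (open). Right, median absolute difference between libraries in score units, which falls with width for both pairs, with library 18 above the pair 19 and 20 in every bin.

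The 5 widest lamina-associated regions matched to a gene were those of Ssty1 on Y, Ptprd, Dmd, Cntnap2 and Lrp1b. Cntnap2, which encodes an axonal adhesion protein, scored 1.8, 1.92 and 1.87. Dmd, the dystrophin gene, scored 1.36, 1.5 and 1.42. Wide non-associated regions included those of Pde4d, Park2, Ptprt and Opcml. Pde4d, which encodes a phosphodiesterase, lay close to the line at -0.08, -0.14 and -0.15, whereas Opcml, a cell adhesion gene, scored -2.18, -2.41 and -2.37. These 4 scored lower in OL than in OPC (limma, adjusted p from 9.2e-05 for Ptprt to 0.00519 for Opcml). Among all 182 regions above 500 kb, however, 45 were called higher (24.7%) and 41 lower (22.5%), against 23% and 10.9% of all regions. Ptprt, a receptor phosphatase gene, fell by 0.97 ± 0.0686 (SE), from -0.20, -0.23 and -0.17 in OPC to -1.12, -1.21 and -1.18.

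Chemosensory receptor genes made up a large part of the lamina-associated class. Of 1110 olfactory receptor genes, 1058 were lamina-associated (95.3%, against 26.3% of all regions), as were 191 of 194 type 1 and 120 of 121 type 2 vomeronasal receptors and all 35 bitter taste receptors. Their median scores in libraries 18, 19 and 20 were 1.93, 2.07 and 2.04 for the olfactory receptors and 1.9, 2.09 and 2.07 for the type 2 vomeronasal receptors. Library 18 was lower than the mean of 19 and 20 in most of these genes, which is the side where its difference was negative. Members of such families are near-copies, so reads may have been placed at the wrong member and single values are uncertain. The highest was Olfr297 with 3.18, 3.21 and 3.29. The 44 non-associated olfactory receptors included close neighbours, such as Olfr222, Olfr223 and Olfr225 on chromosome 11 at -1.88, -1.85 and -2.27 on average, and Olfr70 and Olfr71 on chromosome 4 at -1.95 and -2.24.

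Other tissue-restricted families were on the lamina side as well. All 36 Lce and Sprr genes of the skin's cornified envelope and all 25 prolactin family genes were lamina-associated. So were 45 of 53 keratin-associated protein genes, 48 of 61 serpins and 19 of 21 killer cell lectin-like receptors. Over all regions the lamina-associated share was 26.3%. The Lce and Sprr genes, the prolactins and the killer cell lectin-like receptors each lay on 1 chromosome, so their members may not be independent measurements. All 6 non-associated keratin-associated genes were Krtap7-1 and members of the Krtap5 group. The 10 non-associated serpins included Serpine2 at -2.34 on average and Serpinh1, a collagen chaperone gene, at -1.87. Cytochrome P450 genes were split, with 60 lamina-associated and 37 non-associated of 102 (58.8% and 36.3%, against 26.3% and 71.2% of all regions). Cyp7a1, the rate-limiting enzyme of bile acid synthesis, was highest at 2.21, 2.32 and 2.30, and Cyp1a2, a liver enzyme of drug metabolism, was lowest at -2.23, -2.20 and -2.36.

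Keratins, the filament proteins of epithelia, sat near 0 and stood apart from the other skin genes. Only 6 of 46 were lamina-associated, 29 were non-associated and 11 were mixed. The 46 lay on 2 chromosomes, so they may not be independent measurements. Their median scores were -0.27, -0.50 and -0.37 in libraries 18, 19 and 20. Compared with OPC, limma called 16 keratins lower and 1 higher, where the shares over all regions were 10.9% lower and 23% higher. Without library 18 the counts were 19 and 0, and with all libraries at the same mean and SD 23 and 0. Krt27 scored -0.31, -0.56 and -0.49 in OL and 0.15, 0.33 and -0.08 in OPC, a decrease of 0.59 ± 0.109 (SE, adjusted p = 0.00459). Krt19, the 1 keratin that rose, gained 0.31 ± 0.0977 (adjusted p = 0.0342), which was lost under 6 alternatives, among them without OL 18 (adjusted p = 0.0901).

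Genes of ion channels and synaptic adhesion lay on both sides. Of 19 GABA-A receptor genes, which encode subunits of the main inhibitory channel, 16 were lamina-associated, and the exceptions were Gabrd, Gabrr1 and Gabrr2 at -1.55, -0.95 and -0.75. limma called 8 of the 19 higher than in OPC and 3 lower, where 23% and 10.9% of all regions were called, and the counts were the same with equal mean and SD. The largest called decrease was that of Gabra4, which scored 1.07, 0.91 and 1.04 in OL and 1.84, 1.92 and 1.82 in OPC. Its decrease was 0.85 ± 0.0731 (SE, adjusted p = 0.000196). All OL libraries lay below all OPC libraries there, as in 15.4% of all regions, and naming the largest decrease favours that order. The largest called increase was that of Gabra6, which rose by 0.48 ± 0.076 (SE, adjusted p = 0.00217) to a mean score of 2.69. Synaptic adhesion genes were lamina-associated in 25 of 42 cases, from Cntnap5c at 2.17 to Cadm1 at -2.60. Glutamate receptors had 10 of 28 (35.7%) and voltage-gated potassium channels 8 of 32 (25%), where the share over all regions was 26.3%.

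Genes that cells use widely were almost entirely away from the lamina. None of 64 replication-dependent histone genes, 25 housekeeping genes or 22 cholesterol synthesis genes was lamina-associated, where the share over all regions was 26.3%. Among 87 ribosomal protein genes, the 3 that were lamina-associated were Rpl10l, Rpl39l and Rps4l, at 1.16, 1.22 and 1.21, all of which are relatives of a core ribosomal gene. Of 55 translation initiation factor genes, Eif3e (1.2, 1.24 and 1.21) and Eif3m (0.26, 0.02 and 0.08) were lamina-associated. The lowest list medians were those of the histone genes, at -2.25, -2.40 and -2.32 in libraries 18, 19 and 20, followed by the hnRNP and Srsf splicing factor genes at -2.24, -2.30 and -2.27.

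**Figure D5:**
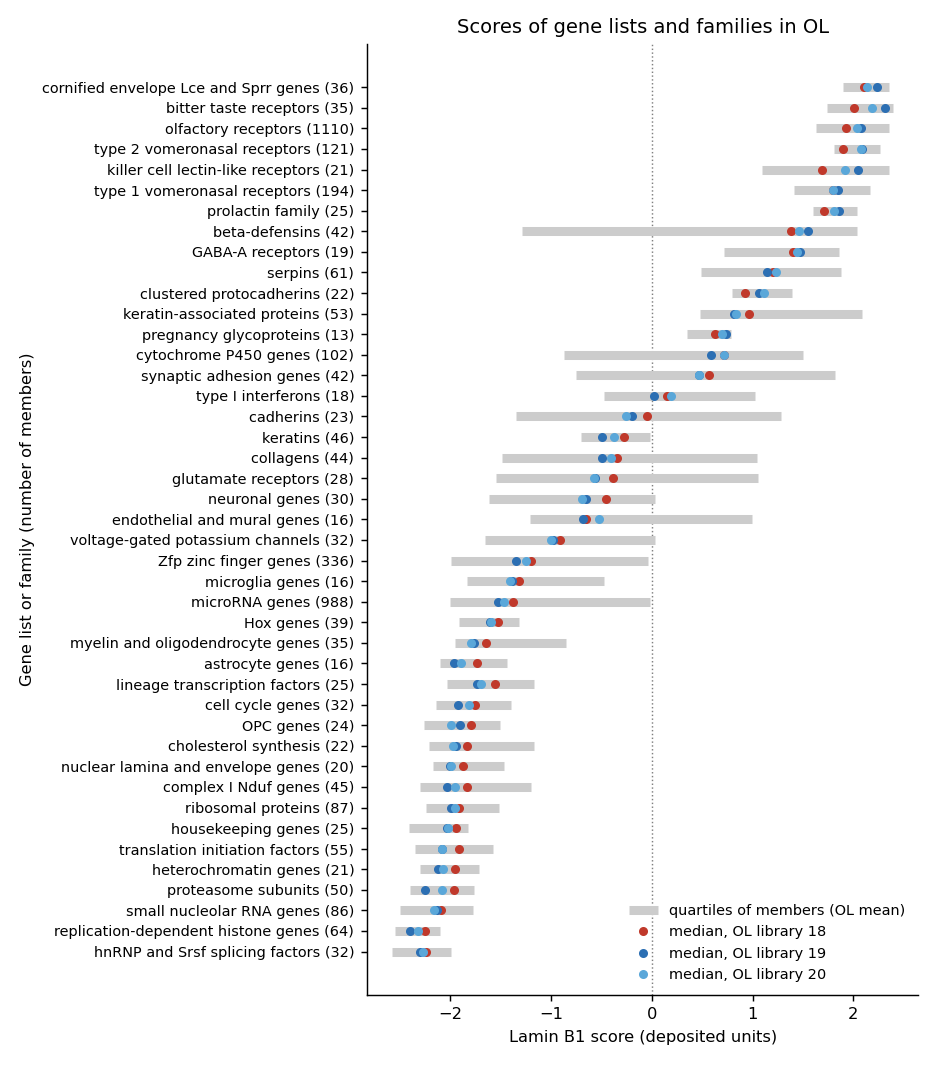
Median lamin B1 score of each gene list or family (number of members in parentheses) in OL libraries 18, 19 and 20, with grey bars from the lower to the upper quartile of the members' OL means. Olfactory, vomeronasal and bitter taste receptors, Lce and Sprr genes and prolactins lie above 1 in every library, and histone and splicing factor genes lie below -2.

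Myelin and oligodendrocyte genes were mostly non-associated in OL. Of 35, 31 were non-associated (88.6%, against 71.2% of all regions) and 4 were lamina-associated. The list medians were -1.65, -1.77 and -1.8 in libraries 18, 19 and 20, against -1.38, -1.5 and -1.49 over all regions. Ermn, whose promoter is shown above, scored 1.5, 1.6 and 1.5, all higher than its OPC scores of 1.29, 1.40 and 1.22. Ugt8a scored 1.04, 0.97 and 0.87, and Lpar1, a lysophosphatidic acid receptor gene, 0.80, 0.71 and 0.72. Enpp2, which encodes the enzyme autotaxin that makes the ligand of Lpar1, was nearest the line at 0.30, 0.11 and 0.14.

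Mobp, Mbp, Mog, Mag and Cnp, which encode myelin proteins, had no score above 0 in any OL library. Mobp, a gene of a compact myelin protein, scored -1.29, -1.40 and -1.53 against -1.09, -1.02 and -1.14 and fell by 0.32 ± 0.0862 (SE, limma, adjusted p = 0.0196), which was lost without OPC 9 (0.0735) or without OL 20 (0.0696). Mbp, which encodes myelin basic protein, scored -1.47, -1.6 and -1.52 and differed from OPC by -0.01 ± 0.0806 (adjusted p = 0.913). Mog scored -0.76, -1.15 and -1.13, with a difference of 0.02 ± 0.115 (adjusted p = 0.925). Its value in library 18 was 0.38 above the mean of the others. Mag and Cnp, both of myelin, had OL means of -0.67 and -1.97 and adjusted p-values of 0.0966 and 0.141 (Mag passed without OPC 10, at 0.0166).

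Over the whole list, limma called 5 of 35 genes higher in OL than in OPC and 6 lower, where the shares over all regions were 23% and 10.9%. Without library 18 the counts were 3 and 6, and with all libraries at the same mean and SD they were 3 and 10. The largest decrease was that of Itpr2, a calcium release channel gene, which scored -1.93 in each OL library and -1.09, -1.14 and -1.19 in OPC (decrease of 0.79 ± 0.0746, adjusted p = 0.000300). The largest increase was that of Cryab, a small heat shock protein gene, by 0.47 ± 0.135 (adjusted p = 0.0250), which was lost under 6 alternatives, among them without OL 18 (0.0795). The median difference of the list was 0.04, against 0.10 over all regions.

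Of 25 transcription factors of the oligodendrocyte lineage, 23 were non-associated (92%, against 71.2% of all regions). St18, a zinc finger factor gene (chromosome 1, 6720051 to 6862940, mm10), was the clear exception at 1.9, 1.88 and 1.92, with OPC scores of 1.86, 1.87 and 1.91. Sox17 was the other, and there library 18 was highest (0.86, 0.48 and 0.34). Sox10, a regulator that the whole lineage needs, was non-associated in both states, at -1.39, -1.34 and -1.47 in OL and -1.89, -2.19 and -2.13 in OPC, and rose by 0.67 ± 0.0985 (adjusted p = 0.00169). Myrf, which drives myelin genes, scored -1.55, -1.67 and -1.69 and rose by 0.33 ± 0.0869 (adjusted p = 0.0189). That call was lost under 4 alternatives, namely without OPC 9 (adjusted p = 0.0589), without OPC 10 (0.0657), with the libraries at the same mean and SD (0.0527) and with quantile normalization (0.0653). Sox5 fell by 0.39 ± 0.0796 (adjusted p = 0.00705). Olig1, Olig2, Nkx2-2 and Nkx6-2 had OL means from -2.05 to -1.6, and their adjusted p-values against OPC ran from 0.387 to 0.605. Olig2 again showed library 18 apart, at -1.49 against -2.0 and -2.03.

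Genes of the precursor state were mostly non-associated after differentiation. Of 24, 21 were non-associated (87.5%, against 71.2% of all regions), 2 were lamina-associated and 1 was mixed. limma called 7 higher and 3 lower than in OPC, shares close to the 23% and 10.9% of all regions. With all libraries at the same mean and SD the counts were 5 and 4. Pdgfra, the receptor for the mitogen of precursors, scored -1.83, -1.86 and -1.96 in OL and -2.14, -2.17 and -2.13 in OPC. Its increase of 0.26 ± 0.0800 (adjusted p = 0.0333) was lost under 7 alternatives, with adjusted p up to 0.256, among them without OL 18 (0.0593). Cspg4, which encodes the NG2 proteoglycan, scored -1.72, -1.94 and -1.98 and rose by 0.41 ± 0.0920 (adjusted p = 0.0103). The largest increase was that of Lhfpl3, from -1.36, -1.35 and -1.33 to -0.32, -0.38 and -0.39 (0.98 ± 0.0683, adjusted p = 9.2e-05). Pcdh15, a protocadherin gene, was the highest of the list at 1.59, 1.66 and 1.62, above its OPC scores of 1.02, 1.03 and 1.00. Tnr, of the extracellular matrix, fell by 0.50 ± 0.0898 (adjusted p = 0.00398).

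Cell cycle genes showed the largest count of increases among the cell type lists relative to size. limma called 17 of 32 higher in OL and 0 lower, where 23% and 10.9% of all regions were called. Without library 18 the counts were 16 and 1, and with all libraries at the same mean and SD they were 11 and 1. Of the list, 28 genes were non-associated (87.5%, against 71.2% of all regions) and 4 were lamina-associated. Cenpk, which encodes a kinetochore protein (chromosome 13, 104219388 to 104251622, mm10), scored 0.78, 0.68 and 0.80 in OL and -0.37, -0.49 and -0.50 in OPC, an increase of 1.21 ± 0.0714 (adjusted p = 5.94e-05). Plk4, a centriole kinase gene, scored 0.32, 0.12 and 0.21 in OL and -0.87, -0.93 and -0.98 in OPC. The replication helicase gene Mcm4 scored 0.22, 0.45 and 0.44 against -0.30, -0.31 and 0.01, and the kinesin gene Cenpe 0.92, 0.71 and 0.72 against 0.10, 0.02 and -0.04. In each of these 4 genes all OL libraries lay above all OPC libraries, as they did in 33.5% of all regions. The reverse order was seen in 15.4%. These 4 were named because their OL scores were all above 0, which favours OL above OPC, so these shares are not a matched baseline. Mki67, Mcm7 and Pcna, chosen here after their values were seen, scored -2.35, -2.38 and -2.59 on average.

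Marker genes of other brain cells lay on both sides. The counts of lamina-associated genes were 1 of 16 for astrocytes, 3 of 16 for microglia, 7 of 16 for endothelial and mural cells and 7 of 30 for neurons, where the share over all regions was 26.3%. The counts of non-associated genes were 15, 12, 9 and 19 in the same order, where the share over all regions was 71.2%. Compared with OPC, limma called 5 of the 16 microglial genes higher and 2 lower, and 2 of the 16 astrocyte genes higher and 5 lower. Over all regions, 23% were called higher and 10.9% lower. With equal mean and SD the counts were 1 and 2 for microglia and 1 and 6 for astrocytes. Without library 18 they were 2 and 1 for microglia and 1 and 5 for astrocytes. The microglial receptor gene P2ry12 scored 0.89, 0.61 and 0.72 and was 0.59 ± 0.0831 higher than in OPC (adjusted p = 0.00139). The astrocyte connexin gene Gjb6 scored -1.47, -1.46 and -1.65 and fell by 1.03 ± 0.103 from OPC (adjusted p = 0.000355). Among the genes of the lamina and envelope, Lmnb1 itself, the gene of the fused protein, scored -2.26, -2.26 and -2.30 and differed from OPC by -0.07 ± 0.0914 (adjusted p = 0.578). Syne1, of the nuclear envelope linker, was lamina-associated at 1.16, 1.26 and 1.24.

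Differences between the states were small beside the distance between the classes. The median absolute difference of a region from its OPC mean was 0.251, 0.197 and 0.192 in libraries 18, 19 and 20. The gap between class medians was 3.22 ± 0.102 (SD, n = 3) in OL. The classes were set by the sign of these OL scores, so part of that gap follows from the rule. In the OPC libraries, which did not set the classes, the gap between the same regions was 3.38 ± 0.0304. OL and OPC were in the same class in 5332 lamina-associated and 15079 non-associated regions. Only 161 regions were lamina-associated in OL and non-associated in OPC, and 116 the reverse. limma called 4963 regions higher in OL (23%) and 2345 lower (10.9%). With all libraries at the same mean and SD the counts were 3330 (15.5%) and 3261 (15.1%), so the surplus of increases was not present on that scale. Without OL 18 they were 4029 and 2552, and without OPC 9 the higher calls dropped to 3136. The surplus lay in the non-associated class, where 3784 regions were called higher and 1416 lower, compared with 1059 and 855 in the lamina-associated class. With equal mean and SD, the non-associated class held 2099 and 2449 and the lamina-associated class 1129 and 727, so on that scale the surplus of increases was in the lamina-associated class.

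The range of scores was narrower in OL than in OPC. The SD over regions averaged 1.51 ± 0.0402 (SD, n = 3) in OL and 1.58 ± 0.0140 in OPC, and each OL library had a smaller SD than each OPC library (exact permutation test, two-sided, p = 0.1, the smallest that 3 against 3 allows, and 0.14 adjusted over 7 summaries). The difference was -0.066 with library 18 and -0.042 without it. The fraction of regions above 0 was 27.4% ± 0.755 in OL and 27.0% ± 0.266 in OPC (exact permutation p = 0.7).

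Chromosomes differed in the calls between the states as well. On chromosome 19, 234 of 710 regions (33.0%) were higher and 36 lower, and on chromosome 10, 318 of 984 (32.3%) were higher and 72 lower, against 23% and 10.9% of all regions. Without library 18 the counts were 188 and 42 on chromosome 19 and 284 and 80 on chromosome 10, and with equal mean and SD they were 152 and 69 and 239 and 102, so the order of these chromosomes by their share of increases turned. Chromosome 12 had 103 of 689 higher (14.9%) and 94 lower, and 70 and 138 with equal mean and SD. On X, 211 regions were higher and 55 lower, and with equal mean and SD 178 and 64, so X kept more increases than decreases on both scales. On Y, 0 of 27 regions were called higher and 11 lower, with 10 lower when library 18 was left out. Whether the share differs between chromosomes beyond the libraries' spread was not tested.

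Hox genes, the body-axis regulators that lie in clusters, were often higher in OL. All 39 were non-associated in OL, where the share over all regions was 71.2%. limma called 22 of 39 higher and 1 lower, against 23% and 10.9% of all regions. Without library 18 the counts were 19 and 0, and with equal mean and SD 16 and 1. Hoxd1 rose most, from -1.98, -1.73 and -1.69 to -0.61, -0.84 and -0.70 (1.09 ± 0.102, adjusted p = 0.000300). At the other end of the same cluster Hoxd13 fell by 0.41 ± 0.140 (adjusted p = 0.0484), which was lost under 5 alternatives with adjusted p up to 0.152, among them without OL 18 (0.0757). The genes of 1 cluster overlap or adjoin, so their calls are not independent.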

How the data were processed

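DamID-seq libraries were made by methylation-specific PCR, per the labels' protocols. Reads were handled with cutadapt 1.9.1 and BWA 0.7.17 on mm10, per the submitters' processing notes (how they became scores is not stated there). The authors deposited 1 score per gene region for each Dam-LMNB1 library, against the pooled Dam libraries of its state per the file headers. The score has no stated log base, so differences are in score units. Depth is unknown, so no counting interval was made. Starts in the table count from 0 and were raised by 1.

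limma 3.58.1 (R 4.3.3) was fitted to the 6 libraries and all 21534 regions, with 1 mean per state, a variance trend and Benjamini-Hochberg adjustment at 0.05. It was tested on simulated data. Levels were tested against 0 and OL against OPC, two-sided. Exact permutation tests over libraries and all other summaries used Python 3.11.15 with pandas 2.3.3. Names came from RefSeq (GRCm38.p6), which matched 20948 regions. Another 428 are tRNA genes, and 158 stayed unmatched. Lists use the widest region of each gene. Promoters on chromosome 18 were not used here, and some named genes are not reported here. The members and lists were chosen with earlier results of these data known.

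Named genes were the highest and lowest members of each list and those on its rarer side of 0, fixed lineage genes, the 5 widest regions of each class, the 5 largest differences of library 18 each way, regions beside the class limits, the ends of the longest runs, the extremes of X, all Y regions, and the largest called change each way in each list. Alternatives were other scalings, cuts and fits, 1 region per overlapping chain, and leaving out each library.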

Additional observations from a re-analysis of the deposited data

How the results depend on the processing

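No paired analysis was possible because the OL and OPC libraries share no replicate number. With 1 region per chain of overlapping regions, 11696 regions remained. Of these, 7033 were called below 0 (60.1%), 7081 were non-associated (60.5%) and 2262 were higher in OL (19.3%). The lamina-associated share was then 36.5%, against 26.3% of all regions, and the non-associated share over all regions was 71.2%. Leaving out each library gave 5495 to 5582 regions above 0, 15120 to 15356 below 0, 3136 to 4132 higher in OL and 1673 to 2552 lower. The lamina-associated share of X was 51.0% with the class set by the mean, 54.7% with 1 region per chain, 50% after the scaffold value was subtracted (an alternative chosen after seeing the data, like all uses of that value and the list and chromosome counts without library 18) and 49.2% to 49.4% without each OL library. For regions over 200 kb it was 51.0% with 1 region per chain and 51.5% after scaffold subtraction. For olfactory receptors it was 95.8% by the mean, 96.1% per chain and 95.8% after scaffold subtraction. The median difference of library 18 was 0.0016 with equal mean and SD and -0.0347 after scaffold subtraction. Of 104 gene differences followed, 89 were called, 71 of them under every alternative. The sign turned only in genes that were not called. Mog went to -0.0637 with equal mean and SD, -0.0765 with array weights and -0.0116 after scaffold subtraction, and ran from -0.110 to 0.0844 without single libraries. Olig1 went to -0.0325 with equal mean and SD and -0.0553 with quantile normalization, and ran from -0.0630 to 0.196 without single libraries. Mbp ran from -0.0444 to 0.0236 and Lmnb1 from -0.114 to 0.0064, each without single libraries. St18 went to -0.0071 after scaffold subtraction. The cause of these changes was not tested. The table holds no read counts, so what depth limits could not be judged.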

Other observations

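Antigen receptor and small RNA regions were also counted by gene type. Of 53 V segments of antigen receptors, 49 were lamina-associated in OL, with median scores of 1.34, 1.48 and 1.37 in libraries 18, 19 and 20. Of 428 tRNA genes, which decode the messenger RNA, 97 were lamina-associated (22.7%, against 26.3% of all regions). The share of tRNA regions above 0 was 26.6%, 23.8% and 24.8% in the OL libraries and 22.4%, 22.4% and 20.1% in OPC, so the groups did not overlap (exact permutation p = 0.1, the smallest that 3 against 3 libraries allows). limma called 117 tRNA regions higher in OL and 19 lower, against 23% and 10.9% of all regions, and 80 and 23 with equal mean and SD. Of 99 small nucleolar RNA regions, which guide RNA modification, 15 were lamina-associated.

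MicroRNA genes gave large changes in both directions. Mir568 scored -2.47, -3.25 and -2.46 in OL and -1.05, -1.03 and -1.05 in OPC, a decrease of 1.69 ± 0.187 (SE, limma, adjusted p = 0.000541). Mir1983 scored -0.11, -0.39 and -0.25 in OL and -1.30, -1.41 and -1.36 in OPC, an increase of 1.11 ± 0.0869 (adjusted p = 0.000136). These regions are near the narrowest of the table, so the value is mostly that of the flanks around a short gene.

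The mitochondrial genome has no contact with the nuclear lamina, yet its 1 region was lamina-associated by the rule, with 1.77, 2.05 and 2.41 in libraries 18, 19 and 20 and 2.18, 2.06 and 1.91 in OPC.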
